A study of Mus musculus with 21 samples.

Results

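The cytosolic ribosomal protein genes were taken from the count table by symbol: Rpsa, Rplp0, Rplp1, Rplp2, and every symbol made of Rps or Rpl with a number and at most a short suffix, which leaves out pseudogene rows and the Rps6 kinases. This gave 83 of 30733 genes, of which 31 encode standard proteins of the small subunit, 45 encode standard proteins of the large subunit, and 7 are variant copies (Rpl22l1, Rps27l, Rpl3l, Rpl10l, Rpl39l, Rpl7l1 and Rps4y2). RNA came from 21 libraries of mouse bone marrow, depleted of lineage-positive cells and sorted into 3 populations: LSK (stem and multipotent progenitors), GMP (granulocyte and monocyte progenitors) and CFU-E (erythroid progenitors). The labels give the genotype as Stag2KO or Stag2WT, here KO and WT, with 4 WT and 3 KO libraries in LSK, 3 WT and 4 KO in GMP, and 3 WT and 4 KO in CFU-E. Stag2 is a subunit of cohesin, the ring that holds sister chromatids and chromatin loops. The sources used here give no allele, driver of the deletion, strain or age. They do not say whether each replicate was its own animal, and the p-values below therefore speak only of the scatter among libraries, part of which may be technical.

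Each ribosome has a small subunit, which reads the mRNA, and a large subunit, which joins the amino acids, and a cell needs their proteins in equal numbers. The mRNAs of these proteins start with a run of pyrimidines, the 5′ terminal oligopyrimidine (TOP) tract, through which mTOR signalling and the protein LARP1 control their translation together. In blood formation the erythroid lineage is the one known to suffer most when a ribosomal protein is short: mutations in genes such as RPS19, RPL5, RPL11 and RPS26 cause Diamond-Blackfan anaemia, and loss of RPS14 causes the anaemia of the 5q- syndrome.

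The sequence around the start site is shown because the tract is the regulatory feature that the family shares, and because the genes that differed between populations include starts with and without it. In RefSeq entries on GRCm38.p6, 62 of the 83 genes had a promoter sequence. A tract was counted where a run of at least 5 C or T bases that begins with C starts within 5 bases of the annotated start, on the gene's own strand. It was found in 29 of the 62 genes (46.8%), against 21.2% of 27025 genes in the same set. The 25-base windows below run from 10 bases before the start to 15 after it, 5′ to 3′, with the tract, as far as the window holds it, in capitals; the first 4 hold one and differed between WT CFU-E and WT GMP, the next 5 differed and hold none, and Rps6, Rps26 and Rpl4 did not pass that test.
Rpl12, chr2:32961702-32961726, plus strand: agcaggatccgtCTTTTCggctttc
Rpl15, chr14:18270972-18270996, minus strand: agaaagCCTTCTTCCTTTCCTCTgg
Rpl27a, chr7:109519185-109519209, plus strand: cgtgagCTCCTCCCTTTTCCCTTTC
Rplp2, chr7:141447641-141447665, plus strand: cagcgtCTTCCTTTCgccgccggac
Rps13, chr7:116334176-116334200, minus strand: caaacgtcggtgagtggcgtcactt
Rpl5, chr5:107900518-107900542, plus strand: cgtcgcttgcgtgctggtggtgcta
Rpl9, chr5:65391417-65391441, minus strand: gggccctgacggattacaagaacgt
Rpl37, chr15:5116603-5116627, plus strand: cctgggcggaagcttatccacagga
Rps16, chr7:28350679-28350703, plus strand: ttctgtcgtgacgtagcactcaatg
Rps6, chr4:86857353-86857377, minus strand: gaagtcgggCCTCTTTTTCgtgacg
Rps26, chr10:128626492-128626516, minus strand: gcaagccgccggatCCTCTTTCgag
Rpl4, chr9:64173377-64173401, plus strand: tttcctgtgggagcagccgggtaga

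The search depends on the annotated start, and where no tract was found this says only that these letters are not in the window. In the longer promoter sequence, from 250 bases before to 50 after the start, the motif CGGAAG, a core recognised by ETS factors, was present on either strand in 41 of the 62 genes (66.1%, against 18.8% of all genes). AAGATGGC, an element of the kind bound by YY1, was present in 6 of 62 (9.68%, against 3.19%). Among related genes, the start tract was found in 9 of 37 ribosome biogenesis genes (24.3%) and 17 of 69 mitochondrial ribosomal protein genes (24.6%). It was found in 4 of 10 translation factor genes and other genes with known TOP mRNAs (40%). These matches describe the letters of the sequence and show no binding.

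Total counts ran from 22813333 to 32196233 in LSK, from 3654667 to 5550165 in CFU-E and from 1250683 to 4401993 in GMP, where depth went with genotype (1250683 to 3471881 in KO, 3732769 to 4401993 in WT). The libraries differ in kind: per the labels' protocols, LSK RNA was amplified over full transcripts, and GMP and CFU-E libraries carry 3′ tags. Marker sums were taken in CPM, which are counts scaled to a common library total, and between GMP and CFU-E they followed the sort. GMP markers such as Mpo summed to 31640 to 49050 CPM in GMP WT and 59.1 to 131.1 CPM in CFU-E WT. CFU-E markers summed to 6520 to 7655 CPM in CFU-E WT and 170.2 to 219.7 CPM in GMP WT. LSK markers summed to 1998 to 2733 CPM in LSK WT, where GMP markers summed to more, 10650 to 17310 CPM. Other cell types were also read. In GMP WT, late neutrophil markers summed to 148300 to 191600 CPM, above the GMP markers. All 6 late neutrophil markers and all 5 B cell markers had counts in both LSK groups. The B cell sum reached 28950 CPM in LSK WT and 54110 CPM in LSK KO. Stag2 itself, before scaling, was at 62.1 to 83.6 CPM in LSK KO against 140.7 to 188.1 in LSK WT, but in GMP the KO libraries (84.7 to 153.6 CPM) overlapped the WT libraries (89.3 to 194.5), so the knockout is not visible there, and directions in GMP are those of the libraries labelled KO. The CFU-E libraries, which carry 3′ tags as the GMP libraries do, separated, with 39.8 to 78 CPM under KO and 123.4 to 158.1 under WT. The deleted part of Stag2 is not given, so whether the tags lie in it is not known. Why the GMP libraries overlapped was not tested.

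Ribosomal protein transcripts took 3.905% to 5.22% of all counts in GMP, 5.16% to 5.98% in CFU-E and 1.41% to 2.19% in LSK, where the other kit forbids a comparison of levels. In GMP WT the share was 4.48% ± 0.668 (SD, n = 3) and in CFU-E WT 5.47% ± 0.409 (n = 3). Small-subunit genes, here all 33 Rps symbols with the variant copies Rps27l and Rps4y2, made up 45.1% to 46.4% of the family's counts in the 7 CFU-E libraries. In the 7 LSK libraries they made up 39.6% to 41.9%. In GMP they made up 49.6% to 51.4% in 6 libraries and 42.6% in KO 4. In bulk RNA, fewer cells of a type and less RNA per cell cannot be told apart.

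Levels of the standard genes ran from 1.35 to 3763 CPM in GMP WT. In 3′ tag libraries a transcript's reads come from its end whatever its length, so levels were set side by side there without dividing by length. In GMP WT the means before scaling were among the highest for Rps3 (3763 CPM), Rpl8 (3257), Rplp1 (3052) and Rps20 (2904). These genes were also among the highest in CFU-E WT, from 3247 CPM for Rps20 to 4627 for Rpl8. At the other end in GMP WT, Rpl10l was listed at 0, Rpl3l was at 0.784 CPM, Rpl10a at 1.35, Rps27 at 1.81 and Rpl39l at 2.06. In CFU-E WT Rpl10l was again at 0, Rpl3l at 0.0786, Rpl39l at 0.506, Rpl28 at 2.22 and Rps27 at 2.71. Rps6, the small-subunit protein phosphorylated downstream of mTOR, was at 3.31 CPM in GMP WT and 3.02 in CFU-E WT, among the lowest levels of the standard genes in both populations.

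LSK WT levels were divided by the length of the lowest-numbered protein-coding GENCODE M21 transcript of each gene, and they depend on that choice. On this measure the 76 standard genes ran from 44.8 CPM per kb (Rps20) to 1148 (Rpl32), and Rps6 was at 254.5, near Rps19 at 259.4. The Rps20 value rests on a transcript of 3706 bases, and its other transcripts were not examined. The genes with the highest LSK WT counts were Rpl4 (1122 CPM, 729.3 per kb), Rplp0 (933.3 CPM, 687.2 per kb), Rps3 (642.5 CPM, 336.7 per kb), Rpl13 (601.1 CPM, 770.7 per kb) and Rpl32 (593.3 CPM). The lowest were Rpl10l (0.198 CPM), Rpl3l (0.4926), Rpl39l (0.528), Rps4y2 (12.5) and Rps28 (38.8). Across the 76 standard genes, levels in GMP WT and CFU-E WT ranked almost alike (Spearman's rho 0.986, with the same kit in both), and levels in GMP WT and LSK WT per kb did so far less (rho 0.372). These are descriptions across genes, which are not independent replicates.

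Many ribosomal protein genes have processed copies elsewhere in the genome, so the end of the transcript was compared with all other annotated genes. For each of the 76 standard genes, the same chosen transcript was used. The share of 50-base windows in its last 300 bases that another GENCODE gene also holds was computed. For 42 genes over 50% of the windows were shared, and their median level in GMP WT was 30.9 CPM. For 20 genes no window was shared, and their median was 155.9 CPM; the 14 genes between had a median of 605.4 CPM. Of the 42, 21 were under 30 CPM, among them Rps27 and Rpl10 with all windows shared and Rps6 with 83.7%. The rank correlation of the shared 3′ share with level was -0.418 in GMP WT and -0.402 in CFU-E WT, and in LSK that of the share over the whole transcript with the level per kb was 0.0747. The levels of single genes did not all follow this order: Rplp1, at 3052 CPM, shared 66.9% of its windows, while Rpl5, at 2.28 CPM, and Rpl28, at 2.45, shared none. Over the whole chosen transcript, Rpl5 shared 48.6% and Rpl28 34.5% of windows, and ends of other transcripts were not examined. No source used here says how the authors' counting treated reads that fit several places, so the levels and fold changes of genes with shared ends are uncertain. Whether reads of those genes were lost was not tested.

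**Figure D1:**
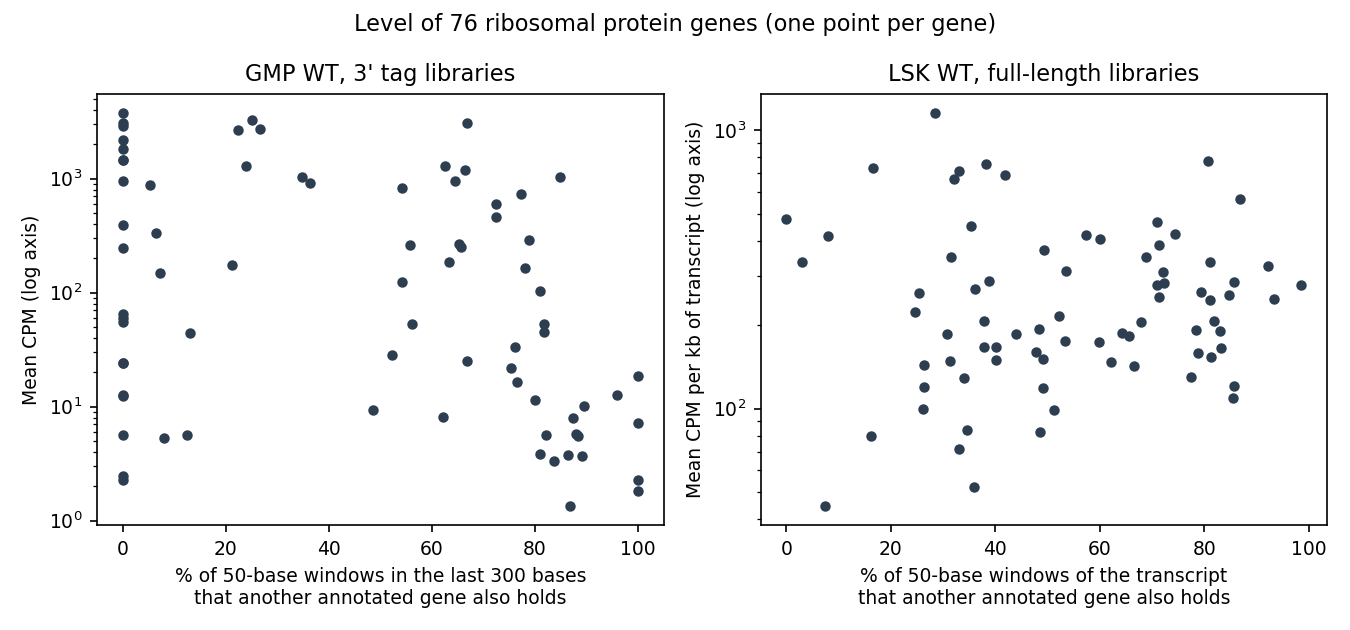
Level of the 76 standard ribosomal protein genes against the share of 50-base windows that another annotated gene also holds, in the last 300 bases for GMP WT (left, mean CPM, log axis) and over the whole transcript for LSK WT (right, mean CPM per kb, log axis). Each point is 1 gene; genes under 30 CPM in GMP WT include 21 of the 42 with more than 50% of windows shared, and 7 of the 20 with none.

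The first comparison asked how WT CFU-E differ from WT GMP, and most genes of the family were not called. Of 79 tested genes, 12 were higher in CFU-E and 4 were lower by edgeR's quasi-likelihood test at an adjusted p under 0.05, where 25% of all 10329 tested genes were higher and 27.3% lower. The median log2 fold change was -0.029 (quartiles -0.30 and 0.35), against 0.032 over all genes (quartiles -0.80 and 0.65). In all, 61 of the 79 lay within 1.5-fold by their estimate, as did 43.3% of all genes, but only 12 had a 95% interval inside 1.5-fold, so most single genes were not measured tightly enough to be called stable. The 3 CFU-E libraries did not overlap the 3 GMP libraries for 16 higher and 5 lower genes (30% and 29.8% of all genes, 59.8% in either direction). One library weighed on the falls: without GMP WT 1, 16 genes were lower and the median was -0.182.

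**Figure D2:**
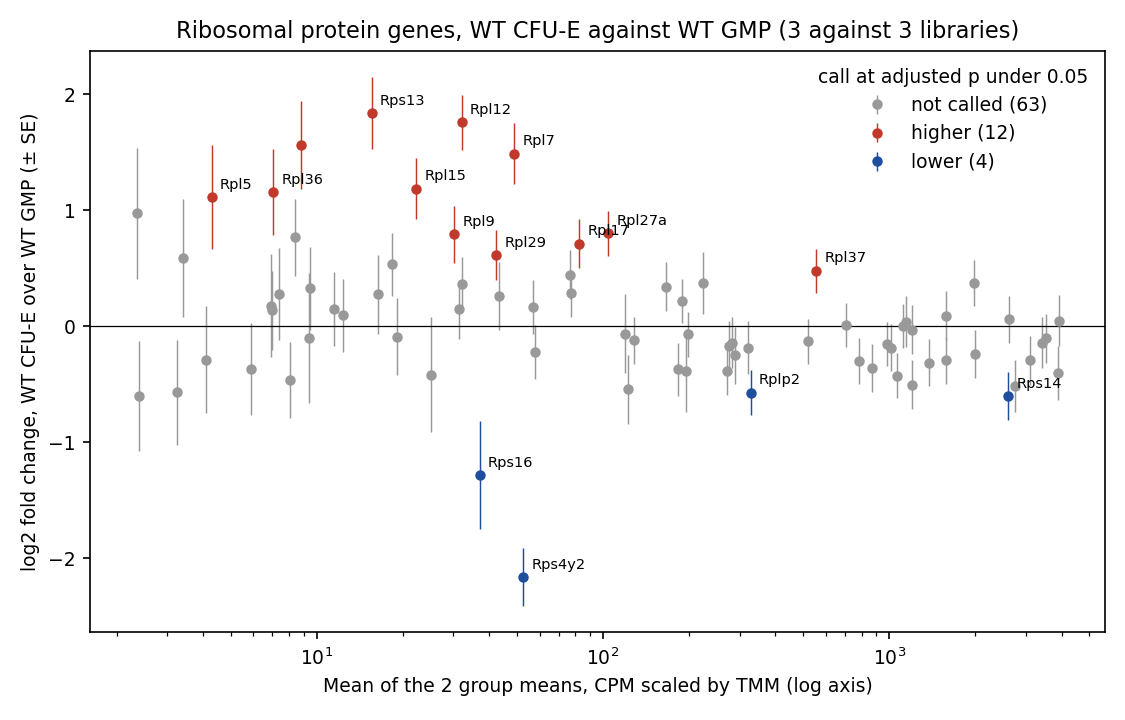
Log2 fold change of 79 ribosomal protein genes in WT CFU-E over WT GMP (points, with SE as bars) against the mean level in CPM (log axis), with 12 genes called higher in red, 4 called lower in blue and 63 not called in grey. Rps13, Rpl12 and Rpl7, among the called genes with the largest rises, have mean levels under 100 CPM, and among genes of 300 CPM or more only Rpl37, Rplp2 and Rps14 were called.

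Of 45 large-subunit genes 10 rose (22.2%, near the 25% of all genes) and 1 fell (2.22%), and of 30 small-subunit genes 2 rose and 2 fell (6.67% each). The difference between the subunits was not tested. Rpl12 encodes a protein at the base of the stalk that binds elongation factors. It was at 51.7, 48.8 and 48.1 CPM in CFU-E WT 1 to 3 and at 13.1, 17.2 and 13.8 in GMP WT 1 to 3. All 3 CFU-E libraries lay above all 3 GMP libraries, at 49.5 ± 1.9 against 14.7 ± 2.21 CPM (SD, n = 3 each), and the fitted log2 ratio was 1.76 ± 0.239 (SE; edgeR, adjusted p = 2.83e-06). Rps13, a small-subunit protein near the interface of the subunits, was at 22.2, 19.7 and 30.9 CPM in CFU-E and at 6.02, 8.92 and 5.44 in GMP. Its libraries did not overlap either, and the log2 fold change was 1.84 ± 0.308 (adjusted p = 3.8e-05, edgeR).

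Rpl7 was at 76.3, 46.6 and 93.9 CPM in CFU-E and at 22.5, 31.9 and 22.9 in GMP. The lowest CFU-E library still lay above the highest GMP library, with a log2 fold change of 1.49 ± 0.261 (adjusted p = 6.46e-05, edgeR). Rpl15 was at 32, 30.8 and 29.8 CPM in CFU-E and at 13.9, 16.3 and 10.6 in GMP, a log2 fold change of 1.19 ± 0.26 (adjusted p = 0.000648, edgeR). Rpl27a, at 144.9, 131 and 120.3 CPM against 84.6, 74.9 and 68.2, rose by 0.80 ± 0.197 on the log2 scale (adjusted p = 0.00182, edgeR). The start windows of Rpl12, Rpl15 and Rpl27a hold a tract, and those of Rps13, Rpl5, Rpl9 and Rpl37 hold none. Counted over the ribosomal protein genes tested here that have a promoter entry, 3 of 7 higher, 1 of 2 lower and 24 of 49 not called held one.

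Genes whose human counterparts are mutated in Diamond-Blackfan anaemia did not move as a block. Rpl5, which with Rpl11 and 5S rRNA binds the p53 regulator Mdm2, was at 6.44, 3.06 and 8.25 CPM in CFU-E and 2.88, 2.87 and 2.29 in GMP (1.11 ± 0.449, adjusted p = 0.0434, edgeR). CFU-E WT 2 lay only just above GMP for Rpl5, and the call ended in 10 of 15 alternative analyses, for example without CFU-E WT 3 (adjusted p = 0.195, edgeR). That fit is the same as flow cell A alone, and both are counted. Rps19, Rps24, Rps26, Rps10, Rps7, Rpl11 and Rpl35a were not called. Rps19 was at 1751, 1900 and 1826 CPM in CFU-E and 1648, 2241 and 2571 in GMP, which overlap (-0.24 ± 0.209). Rps24 had a log2 fold change of 0.01 ± 0.192, Rps26 of -0.32 ± 0.202, Rpl11 of 0.28 ± 0.397 and Rpl35a of -0.54 ± 0.297. Rps10, at -0.51 ± 0.213, stood just outside the threshold (adjusted p = 0.0533, edgeR), as did Rps7 at 0.77 ± 0.329 (adjusted p = 0.0577, edgeR).

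Rps14, the gene of the 5q- syndrome, was lower in CFU-E. It was at 1846, 2321 and 2038 CPM there and at 2832, 2957 and 3631 in GMP, so that the groups did not overlap, with a log2 fold change of -0.60 ± 0.205 (adjusted p = 0.0179, edgeR). Rplp2, one of the acidic stalk proteins that form pairs with Rplp1, was at 273.2, 286.5 and 231.8 CPM in CFU-E and 351, 384.8 and 441.1 in GMP (-0.57 ± 0.191, adjusted p = 0.016, edgeR). The other stalk proteins did not pass: Rplp1 had a log2 fold change of -0.14 ± 0.221 and Rplp0, to which the pairs bind, of 0.04 ± 0.22. Rps16 was called lower at -1.28 ± 0.468 (adjusted p = 0.0262, edgeR), yet its libraries overlapped, at 37.6, 10.2 and 16.7 CPM in CFU-E and 12.6, 66.9 and 78.2 in GMP. The low GMP value came from GMP WT 1. Without CFU-E WT 3, the only one of these 6 libraries on the other flow cell, the calls of Rps14, Rplp2 and Rps16 ended (adjusted p = 0.0693, 0.107 and 0.0685, edgeR). The call of Rps14 also ended without CFU-E WT 1 (0.09), and that of Rps16 without GMP WT 2 (0.126), GMP WT 3 (0.199) or CFU-E WT 2 (0.0981).

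The deepest fall was in Rps4y2, which was matched to Rps4l in GENCODE M21 and is 1 of the variant copies, related to Rps4x. It was at 15.8, 22.3 and 19.5 CPM in CFU-E and at 61.8, 86.7 and 110.3 in GMP, with no overlap and a log2 fold change of -2.16 ± 0.248 (adjusted p = 2.64e-07, edgeR). Rps4x itself, the X-linked gene of the working protein, was at 13.5, 4.25 and 9.39 CPM in CFU-E and at 0.785, 12.1 and 16.3 in GMP, which overlap (-0.10 ± 0.558). Of the other variant copies, Rpl22l1 (-0.12 ± 0.201), Rps27l (0.34 ± 0.211) and Rpl7l1 (-0.07 ± 0.194) were not called, and neither was Rpl22 (0.09 ± 0.213). In 3′ windows, 17.5% of those of Rps4y2 and 62.2% of those of Rps4x were found in other genes.

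The rest of the called genes lay between. Rpl36 had a log2 fold change of 1.15, Rpl9 of 0.79, Rpl17 of 0.71, Rpl29 of 0.61 and Rpl37 of 0.48, the last 2 beyond the 10 largest and named after their values were seen. Leaving out 1 library ended the call of Rpl36 (GMP WT 1 or CFU-E WT 1), Rpl29 (GMP WT 1, CFU-E WT 2 or CFU-E WT 3) and Rpl37 (any but GMP WT 3), with adjusted p from 0.0595 to 0.118 by edgeR. Uncalled genes with known roles were Rpsa, the laminin-receptor protein of the small subunit (-0.17 ± 0.211), Rps6 (-0.57 ± 0.45), Rps27a, made as a fusion with ubiquitin (-0.46 ± 0.324), Rpl3 of the peptidyl transferase centre (-0.09 ± 0.334), Rpl10 (0.59 ± 0.506) and Rpl39 of the exit tunnel (-0.37 ± 0.228). The abundant genes Rps3, Rps20, Rpl8 and Rpl4 were not called, with log2 fold changes from -0.40 to 0.37. By level, 5 of 24 genes under 30 CPM rose and none fell, where 21.4% of all genes at that level rose and 28.2% fell. From 30 to 300 CPM 6 of 28 rose and 2 fell (28.9% and 26% of all genes), and from 300 CPM 1 of 27 rose and 2 fell (29.2% and 29.4%). Of the 20 tested standard genes with no 3′ window shared with another gene, 4 rose and 0 fell. Of the 41 tested with more than 50% shared, 8 rose and 0 fell, and of the 14 between 0 rose and 3 fell.

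The calls held unevenly. Rpl12, Rps13, Rpl7, Rpl15, Rpl27a and Rps4y2 were called in each of 16 alternative analyses, the largest adjusted p among them being 0.0147 by edgeR or DESeq2. Flow cell A alone and leaving out CFU-E WT 3 are the same fit there, and both are counted. With the flow cell as a term, which rests on CFU-E WT 3 alone, 7 genes were higher and 1 was lower. The scaling moved the counts further: TMM factors were 0.844 to 0.871 in GMP and 1.13 to 1.21 in CFU-E, and the 6 late neutrophil markers alone took 148300 to 191600 CPM in GMP WT against 279.3 to 556.3 in CFU-E WT. With total counts in place of TMM factors the median of all genes moved to 0.49, that of the ribosomal protein genes to 0.429, and 31 were called higher and 1 lower, so the split depends on that choice, while the family's median minus that of all genes was -0.061 against -0.062.

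The machinery that builds ribosomes did differ between the populations. Of 47 tested ribosome biogenesis genes, 37 were higher in CFU-E and 1 was lower, with a median log2 fold change of 0.89, against -0.029 for the ribosomal proteins and 0.032 over all genes. All genes were called higher in 25% and lower in 27.3%, the shares against which these lists are to be read. Gnl3 (nucleostemin), at 217.6 ± 23.1 against 60.3 ± 14.6 CPM, rose by 1.85 on the log2 scale, Nolc1 by 1.49, the nucleolar helicase Ddx21 by 1.46 and Polr1a, the largest subunit of RNA polymerase I, by 1.49 (adjusted p from 3.94e-07 to 2.38e-06, edgeR). The gene that fell was Eif6, which keeps the subunits from joining too early (-0.57). Of 20 tRNA synthetase genes 16 rose and none fell (median 0.795), among them Hars by 1.65 and Gars by 1.11. These values are relative to the TMM scaling, as above. The alternative analyses were read for the ribosomal protein genes only, so whether the calls of the related lists hold in them was not tested.

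Other relatives moved less. Of 71 mitochondrial ribosomal protein genes 19 rose and 2 fell (26.8% and 2.82%, median 0.342), a share of rises near the 25% of all genes, with Mrpl52 at 2.60 and Mrpl47 at 1.37 and the falls in Mrpl33 (-1.10) and Mrpl44 (-1.24). Of 13 translation factor genes and other genes with TOP mRNAs 5 rose and none fell: Eif2s3x by 1.345, Naca by 0.675, Eif4b by 0.64, Eif3e by 0.64 and Eef1g by 0.55. Of 11 regulators of TOP mRNAs 6 rose, among them Eif4ebp1, an mTOR target that holds back cap-dependent translation, by 1.18, Cnbp by 0.82, Larp1b by 0.76, Tial1 by 0.74 and Larp1 by 0.58. Among ribosomal proteins filed under other symbols, Fau (-0.345) and Gnb2l1, the Rack1 protein (-0.345, at 3995 CPM in CFU-E), were not called. Of 38 tested pseudogene rows Rpl14-ps1 rose (0.56) and Rpl35a-ps2 (-1.05), Rps25-ps1 (-0.76) and Rpl17-ps3 (-0.55) fell.

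In LSK, no ribosomal protein gene was called between KO and WT (0 of 82, against 0.0793% of 17664 genes, 0.0283% higher and 0.051% lower; 0 also at an unadjusted p under 0.05, and 0 by DESeq2). The median log2 fold change was -0.102 against 0.004 over all genes, 76 of 82 values were negative, and all 31 small-subunit genes were. The KO and WT libraries overlapped for every gene, where 7.89% of all genes had no overlap (3.26% higher, 4.63% lower). The genes moved together from library to library, so these values are not separate evidence. Single libraries also set their size: without KO 2 the median was -0.007 with 46 negative values, without WT 4 it was -0.018 with 49 of 81, and without WT 2 -0.059 with 70. It was -0.16 without WT 3, -0.206 without KO 1 and -0.207 without WT 1. Rpl32, the most abundant per kb, was at 412.5, 691.2, 500.7 and 727.3 CPM in WT 1 to 4 and at 583.1, 463.3 and 483.4 in KO 1 to 3. WT 1 lay below every KO library and WT 2 and WT 4 above every one, and the fold change was -0.19 ± 0.214 (adjusted p = 0.89, edgeR). Rps6 was at 181.9, 259.7, 197.4 and 241 CPM in WT and at 241, 173 and 191.2 in KO (-0.125 ± 0.172). Rplp0 was at 860, 933.5, 893.9 and 998.1 in WT and at 902.9, 825.7 and 851.4 in KO (-0.10 ± 0.123). The same order returns in all 3 genes: WT 4 or WT 2 is highest, and WT 1 or KO 2 lowest.

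**Figure D3:**
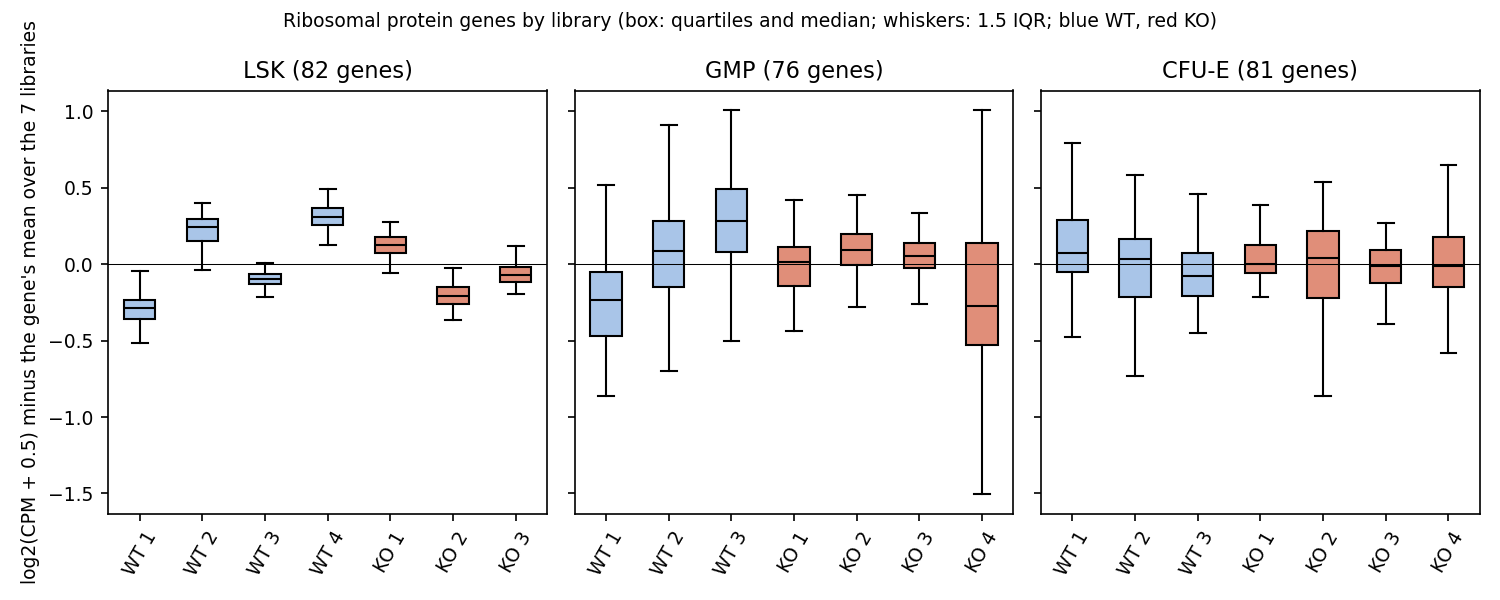
Log2(CPM + 0.5) of each ribosomal protein gene minus its mean over the 7 libraries of its population (y axis), by library (x axis), with WT boxes in blue and KO boxes in red; boxes give the quartiles and median, whiskers reach 1.5 interquartile ranges. In LSK the boxes are narrow and shifted as wholes, with WT 1 at a median of -0.286 and WT 4 at 0.31. In GMP and CFU-E the genes of one library spread more widely, most of all in GMP KO 4. Medians also shifted in GMP, to -0.237 in WT 1 and 0.282 in WT 3.

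Taken by library, the median deviation of the 82 genes from their means was -0.286 in WT 1, 0.247 in WT 2, -0.098 in WT 3, 0.31 in WT 4, 0.129 in KO 1, -0.208 in KO 2 and -0.072 in KO 3. WT 1 was lowest in 61 of the 82 genes (14.6% of all genes) and WT 4 highest in 59 (18.1% of all genes). The family's share of counts followed, from 1.41% in KO 2 and 1.5% in WT 1 to 2.12% in WT 2 and 2.19% in WT 4. Late neutrophil markers summed to 333.4, 8475, 1324 and 4517 CPM in WT 1 to 4 and to 699.9 to 1593 CPM in KO, so WT 2 and WT 4 were high in both. B cell markers summed to 1357 to 28950 CPM in WT and 5134 to 54110 in KO, with the highest value in KO 2, and none of these markers was at 0 in either group. The part of these cells in the family's level was not tested. When WT 2 and WT 4 were left out, a step added once the data had been seen, the median became 0.152 and 2 of 82 values were negative. With the estimates as they are, 58 of the 82 genes had a 95% interval inside 1.5-fold in either direction.

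Single genes of LSK followed the same pattern. The Diamond-Blackfan genes Rps19 (-0.11), Rps24 (-0.06), Rps26 (-0.075), Rps7 (-0.13), Rps10 (-0.09), Rpl5 (-0.12), Rpl11 (-0.16) and Rpl35a (-0.16) had SEs from 0.157 to 0.202, and Rps14 was at -0.085 ± 0.192. The only positive values were those of Rpl18, Rpl27a, Rpl4, Rpl8, Rpl24 and Rpl39l, of which all but Rpl39l were at most 0.06. Among variant copies, Rpl22l1 (-0.16), which the working gene Rpl22 is known to repress, kept a steady ratio to Rpl22, with 46.2 to 55.7 Rpl22l1 counts per 100 Rpl22 counts over the 7 libraries. Rps27l, a p53 target, ran at 183 to 202 counts per 100 of Rps27, and Rpl7l1 at 68.9 to 102 per 100 of Rpl7. These ratios of counts are not divided by length and do not rank the levels of a pair. In LSK WT, Rpl7l1 (2606 bases) was at 113.5 CPM per kb and Rpl7 (1163 bases) at 311.8. Over the whole chosen transcript, 98.6% of the windows of Rps27 and 22.4% of those of Rps27l were found in other genes. Rpl10l, the testis copy, was not tested, and Rpl3l, the muscle copy, had 0.105 to 0.785 CPM in the 7 libraries.

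In GMP, 0 of 76 tested genes were called, where 1.45% of 9969 genes were. At an unadjusted p under 0.05 there were 7, and DESeq2 called 0. The median log2 fold change was -0.074 against 0.015 over all genes, with 34 positive and 42 negative. Single libraries set its sign: it was 0.088 without WT 3, 0.033 without KO 4 and -0.198 without WT 1, and over all 7 such exclusions it ran between the first and the last of these. Libraries labelled KO and WT did not overlap for 3 higher genes (7.37% of all genes) and 3 lower genes (8.46%). The higher ones were Rpl6, Rplp2 and Rps26 and the lower ones Rps13, Rpl7 and Rpl17, of which Rpl6 was named after its values were seen. Only 15 of the 76 genes had a 95% interval inside 1.5-fold, so changes of that size could not be seen for most.

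Rpl6, a large-subunit protein, was at 25.3, 23 and 28.6 CPM in WT 1 to 3 and at 35.7, 34.6, 40.7 and 70 in KO 1 to 4. Every KO library was higher, by 0.83 ± 0.274 on the log2 scale, and the value did not pass (adjusted p = 0.149, edgeR). Rps13 was at 5.39, 8.05 and 5.03 CPM in WT and at 2.97, 3.66, 2.62 and 2.71 in KO (-1.02 ± 0.397, adjusted p = 0.208, edgeR). Rpl7 was at 20.1, 28.7 and 21.2 CPM in WT and at 11.9, 17.4, 14.8 and 13.9 in KO (-0.66 ± 0.258, adjusted p = 0.208, edgeR). Both were higher in WT CFU-E than in WT GMP, a comparison that shares the GMP WT libraries.

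The stalk proteins and Rps26 show 1 library apart. Rplp1 was at 2861, 2791 and 4156 CPM in WT and at 3628, 3663, 3816 and 12090 in KO, so KO 4 lay far above all other libraries, and the other KO libraries lay within the WT range. Its log2 fold change of 0.83 ± 0.388 (adjusted p = 0.275, edgeR) fell to 0.20 without KO 4. Rps26 was at 1419, 1173 and 1578 CPM in WT and at 1629, 1581, 1758 and 3342 in KO, and its fold change fell from 0.58 to 0.27 without KO 4. Rplp2 was at 314, 347.1 and 408 CPM in WT and at 454.8, 456.9, 472.1 and 742.4 in KO. All 4 KO libraries were above WT, with KO 4 far above the other 3, and the fold change was 0.58 ± 0.237 (adjusted p = 0.223, edgeR) and 0.39 without KO 4. Rplp0, the core of the same stalk, was at 755.7, 1002 and 1328 CPM in WT and at 1036, 949, 980.9 and 803.7 in KO (-0.13 ± 0.232), with KO 4 the lowest of the KO libraries.

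**Figure D4:**
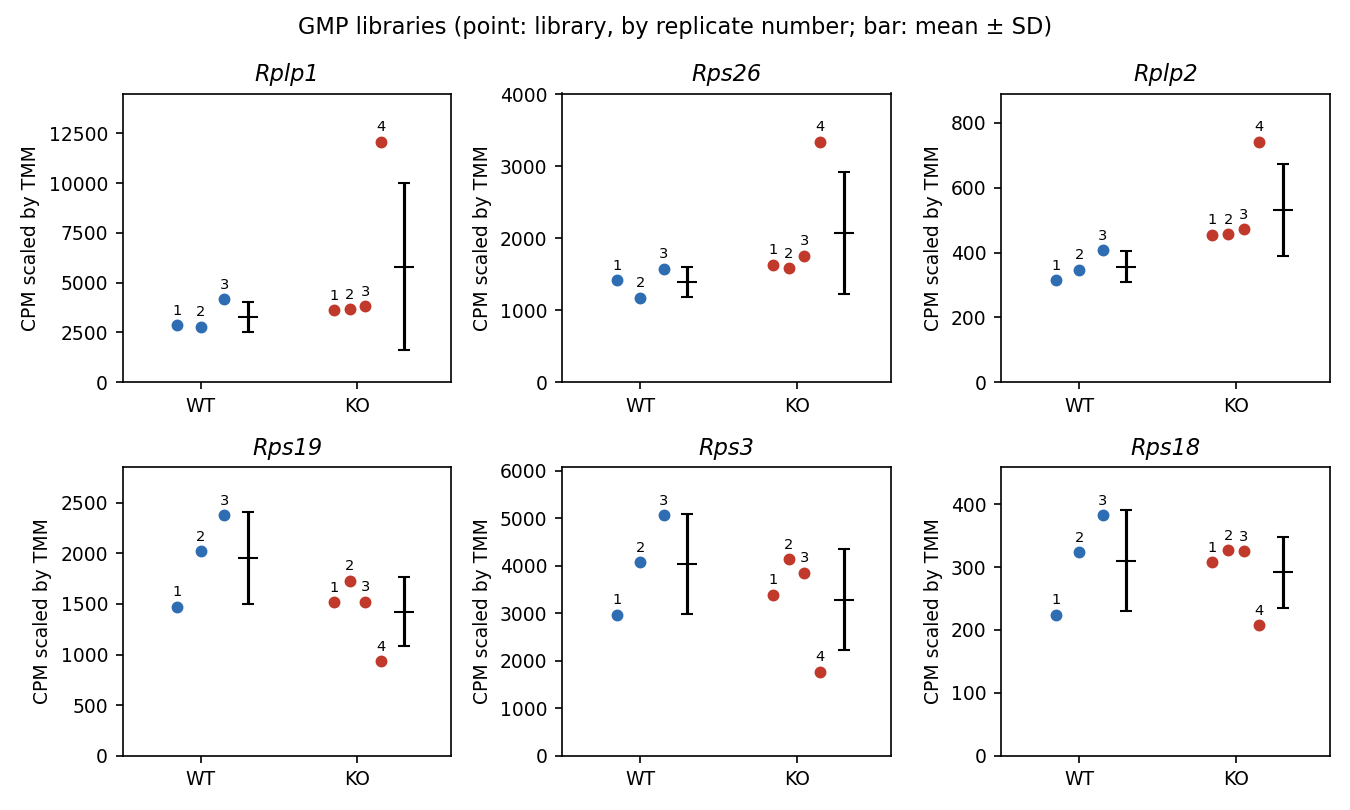
CPM scaled by TMM of 6 ribosomal protein genes in the GMP libraries (points, numbered by replicate; WT blue, KO red; black bars are mean ± SD). KO 4 stands above all others for Rplp1 (12090 CPM), Rps26 (3342) and Rplp2 (742.4) and below all others for Rps19 (932.2), Rps3 (1770) and Rps18 (207.7), while KO 1 to KO 3 lie close together.

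KO 4 differed in both directions. It was the lowest of the 7 libraries in 32 of 76 genes and the highest in 15 (27.9% and 29.8% of all genes). Rps19 was at 1474, 2021 and 2378 CPM in WT and at 1518, 1728, 1522 and 932.2 in KO (-0.46 ± 0.253), and Rps3 at 2967, 4079 and 5069 in WT and 3396, 4136, 3854 and 1770 in KO (-0.30 ± 0.288). Rps6 was at 3.04, 2.59 and 5.03 CPM in WT and at 2.23, 4.5, 5.82 and 14.5 in KO, again with KO 4 highest. KO 1 to KO 3 agreed more closely: Rps19 lay between 1518 and 1728 CPM in them. GMP WT 1 stood apart in the other group, with Rps4x at 0.703 CPM against 10.9 and 15.1 in WT 2 and WT 3. The median deviation of the 76 genes was -0.237 in WT 1, 0.088 in WT 2, 0.282 in WT 3 and -0.274 in KO 4, and 0.013 to 0.096 in the other KO libraries. Late neutrophil markers, all 6 of them with counts, summed to 148300 to 191600 CPM in WT and 75280 to 124100 in KO, with the lowest value in KO 4, and the part of that difference in these values was not tested. Without KO 1, the shallowest library, and KO 4 (chosen after seeing the data), the median was 0.038 and again 0 genes were called.

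The remaining named genes in GMP did not pass the test. Rps14 was at 2533, 2667 and 3359 CPM in WT and at 3318, 3842, 3400 and 2616 in KO (0.21 ± 0.228). Rps24 was at 0.21 ± 0.214, Rps10 at 0.04 ± 0.223, Rps7 at 0.49 ± 0.388, Rpl11 at -0.195 ± 0.453, Rpl35a at -0.53 ± 0.322, Rpsa at 0.28 ± 0.241, Rps27a at -0.21 ± 0.313, Rpl3 at 0.34 ± 0.316 and Rps4x at -0.30 ± 0.594. Rpl5, Rpl10, Rps27, Rpl10a and Rpl28 had too few counts in GMP to be tested, and so had Rpl3l and Rpl10l. Rps4y2 was at 55.3, 78.2 and 102 CPM in WT and at 61.7, 49.2, 49.5 and 38.9 in KO, with overlap through KO 1 (-0.665 ± 0.248, adjusted p = 0.195, edgeR). Rpl39 was at 136.8, 185 and 241.1 CPM in WT and at 250.5, 314.4, 290.3 and 240.2 in KO, with KO 4 just under WT 3 (0.55 ± 0.234, adjusted p = 0.237, edgeR). Rpl22 (-0.24 ± 0.238), Rpl22l1 (-0.07 ± 0.208), Rps27l (0.02 ± 0.228) and Rpl7l1 (0.16 ± 0.202) were not called.

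In CFU-E, 0 of 81 tested genes were called (1.06% of 10170 genes were). At an unadjusted p under 0.05 there was 1 gene, and DESeq2 called 0. The median log2 fold change was 0.004, the same as over all genes, and the quartiles were -0.08 and 0.11 against -0.17 and 0.205 over all genes. Of the 81 genes 77 lay within 1.5-fold by their estimate (87.7% of all genes), and 49 had a 95% interval inside 1.5-fold.

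Rps19 was at 2115, 2175 and 2157 CPM in WT 1 to 3 and at 2100, 2589, 1851 and 1822 in KO 1 to 4, a log2 fold change of -0.04 ± 0.166. Rps14 was at 2231, 2658 and 2407 CPM in WT and at 2113, 3299, 2610 and 2037 in KO (-0.03 ± 0.193). Rps26 was at 1342, 1649 and 1341 CPM in WT and at 1498, 1639, 1491 and 1381 in KO (0.09 ± 0.151). In all 3 genes the groups overlap. Rps24 (0.00 ± 0.143), Rps10 (0.18 ± 0.201), Rps7 (0.14 ± 0.268), Rpl5 (-0.18 ± 0.374), Rpl11 (-0.19 ± 0.302) and Rpl35a (0.245 ± 0.197) were not called either. The stalk proteins Rplp0 (0.01 ± 0.158), Rplp1 (-0.03 ± 0.181) and Rplp2 (-0.08 ± 0.152) were not called, and no library stood far above the rest: Rplp1 was at 3296, 4427 and 3745 CPM in WT and at 3432, 4694, 3945 and 3404 in KO.

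**Figure D5:**
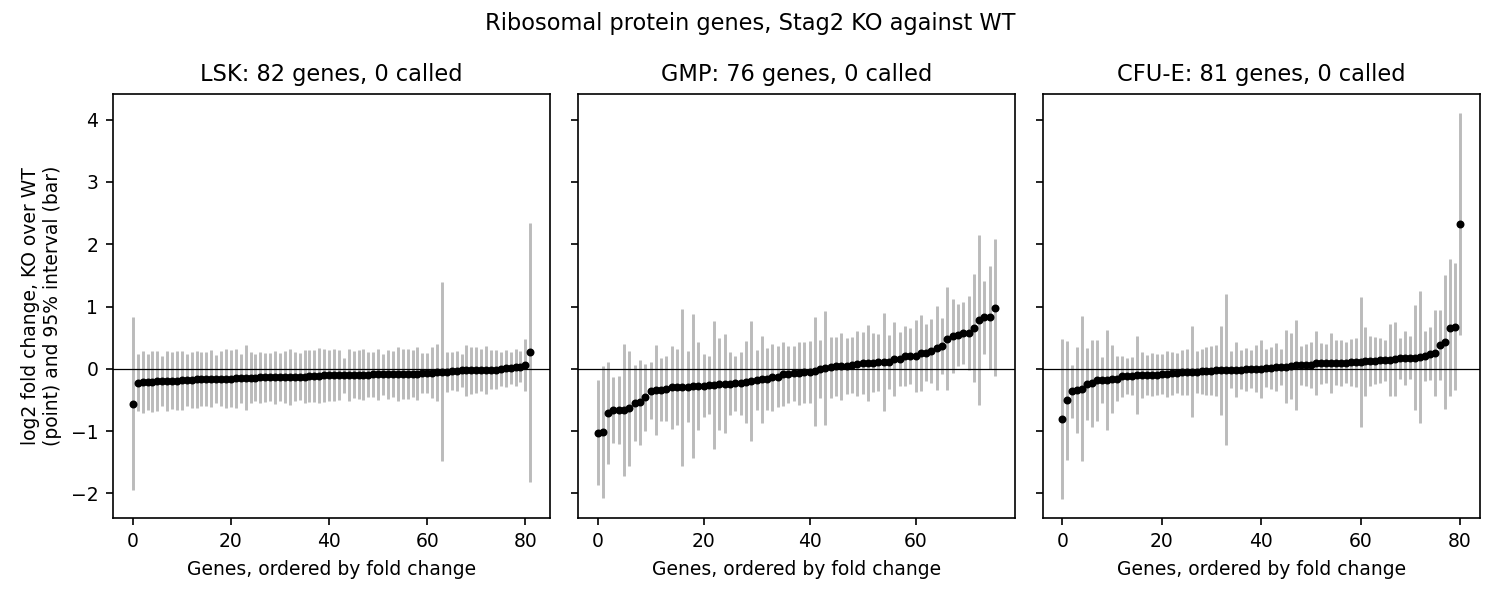
Log2 fold change of KO over WT (points) with 95% intervals (grey bars) for the ribosomal protein genes tested in LSK (82), GMP (76) and CFU-E (81), ordered by size along the x axis. No gene was called in any panel; in LSK 76 of the points lie below 0, in GMP the points run from -1.02 to 0.98, and in CFU-E Rpl39l stands apart at 2.33 with a wide interval.

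The gene that stood out in CFU-E was Rpl39l, a copy of Rpl39 known for its part in the ribosomes of male germ cells. It was at 0.942, 0.584 and 0 CPM in WT and at 1.63, 5.79, 3.09 and 2.66 in KO. All 4 KO libraries lay above all 3 WT libraries, as in 6.1% of all genes, with 5.66% on the lower side, and the log2 fold change was 2.33 ± 0.826 (adjusted p = 0.294, edgeR). The counts are small, with 4, 3 and 0 in WT and 8, 31, 15 and 10 in KO, and without WT 3 the value was 1.09. In GMP, Rpl39l was at 3.75, 1.44 and 1.32 CPM in WT and at 0, 6.19, 5.53 and 2.03 in KO, which overlap (0.79 ± 0.646). In LSK it was at 0.13, 0.0834, 0.294 and 1.56 CPM in WT and at 0.297, 0.571 and 0.976 in KO. Its partner Rpl39 was at 190.4, 229 and 141.5 CPM in CFU-E WT and 186.3, 188.7, 190 and 188.9 in KO (0.14 ± 0.165), with the KO libraries between 186.3 and 190 CPM. Rpl39l has no 3′ window in common with another annotated gene.

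The other named genes in CFU-E did not pass the test. Rpl22 was at 2076, 2181 and 1484 CPM in WT and at 2009, 2003, 2002 and 1942 in KO (0.18 ± 0.159), and Rpl22l1 at 178.4, 138.1 and 117.7 in WT and 122.3, 145.4, 132.2 and 148.5 in KO (-0.04 ± 0.179). The Rpl22l1 count per 100 Rpl22 counts was 6.33 to 8.59 in WT and 6.09 to 7.64 in KO. Rps27 (-0.80 ± 0.594), Rps27l (0.10 ± 0.153), Rpl7 (-0.24 ± 0.268), Rpl7l1 (-0.10 ± 0.151), Rpl3 (0.09 ± 0.239), Rpl10 (-0.01 ± 0.562), Rps4x (0.19 ± 0.491), Rps4y2 (0.00 ± 0.217), Rps6 (-0.32 ± 0.538), Rps27a (-0.34 ± 0.321) and Rpsa (0.06 ± 0.144) were not called. Megakaryocyte markers, with all 4 detected, summed to 102.8 to 228.2 CPM in CFU-E WT and 365.9 to 825.2 in KO. Their part in the family's level was not tested, and the family's share of counts was 5.16% to 5.94% in WT and 5.24% to 5.98% in KO.

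The KO effect in CFU-E was also set against that in GMP in a single fit. Of 80 tested genes 0 differed (0.445% of 11006 genes did), with 3 at an unadjusted p under 0.05: Rpl6 (-0.92 ± 0.328), Rpl24 (-0.80 ± 0.359) and Rps4y2 (0.75 ± 0.343), with adjusted p of 0.261, 0.337 and 0.345 by edgeR. Rpl24 is named after its values were seen. The median difference was 0.191 against 0.095 over all genes, and 52 of 80 values were positive. Only 1 gene had a 95% interval inside 1.5-fold, so this fit could not show that the effects were alike. Rplp1, at -0.75 ± 0.492, and Rps6, at -1.20 ± 0.802, include GMP KO 4, where both were highest, and Rplp1 was at -0.147 without it.

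None of the related lists gave a called gene under the KO. Ribosome biogenesis genes had a median log2 fold change of 0.045 in LSK and -0.146 in GMP over 47 tested genes each, tRNA synthetases of 0.133 and -0.149 over 20, and mitochondrial ribosomal protein genes of -0.068 over 76 and -0.214 over 70. In CFU-E these medians were -0.038, -0.02 and 0.019. The list of translation factors and other genes with known TOP mRNAs had a median of 0.069 in LSK with 9 of 15 positive, where 76 of 82 ribosomal protein genes were negative. By the search above, a start tract was found in 4 of 10 genes of that list and 29 of 62 ribosomal protein genes. The difference between the lists was not tested. Pseudogene rows of ribosomal proteins took 0.153% to 0.274% of counts in the 3′ tag libraries and 0.00904% to 0.0148% in LSK, and of 38 tested in GMP 26 were positive, with a median of 0.334 and none called.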

How the data were processed

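RNA of 21 sorted libraries was measured. Per the labels' protocols, RNA was extracted with TRIzol, LSK libraries were made with SMARTer from full transcripts, and GMP and CFU-E libraries with SMART-Seq2 and 3′ sequencing. The submitters' processing notes name STAR 2.4, HTSeq 0.6.1, DESeq2 and mm9. No source used here gives the annotation or the strand setting. The authors deposited whole-number counts per gene, not normalized, and no pair of libraries of a group agreed within sampling noise. The members and lists were chosen with earlier results of these data known.

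Counts were tested with edgeR 4.0.16 in R 4.3.3 (quasi-likelihood test, minimum count 10 and total 15 in filterByExpr, TMM factors, Benjamini-Hochberg adjusted p under 0.05 over all genes tested). Each comparison used its own groups, with a flow cell term for CFU-E and for the difference between populations. The script was tested on simulated data. CPM are scaled by TMM within a comparison, so a library's CPM differs between comparisons, unless given as before scaling. Named were a set of genes with known roles and the paralog pairs, the called genes (at most 10 per direction by size), the 5 highest and lowest per population, and up to 4 called genes of each related list by p. Alternatives were DESeq2 1.42.0, other scalings and filters, thinned counts, a replicate block, the flow cell and leaving out libraries. Some genes that this rule would name are not reported here by name.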

Additional observations from a re-analysis of the deposited data

Results flagged for a closer look

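In 6 of 91 values examined, 1 library lay far from the others of its group. Chance gives about 1 in 20 such groups. In GMP KO, library KO 4 was far above the other 3 for Rplp1 (12090 CPM), Rps26 (3342 CPM) and Rplp2 (742.4 CPM). Over all 76 tested genes of GMP KO, 12 had an outlying library, and it was KO 4 in each, 4 times as the highest and 8 times as the lowest. In LSK WT, WT 4 was far above the rest for Rpl39l (1.555 CPM) and WT 3 for Rpl3l (0.7846 CPM). In CFU-E KO, KO 4 was lowest for Rpl22 (1942 CPM) because the other 3 libraries lay between 2002 and 2009 CPM. Over all tested genes, 2 of 82 in LSK WT and 5 of 81 in CFU-E KO had such a library.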

How the results depend on the processing

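Of 270 values for the whole family under the alternatives, 255 moved by less than the spread between replicates, or by less than 1.5 times for counts. Many of the 255 are counts of called genes in the KO comparisons and in the difference, which were 0 in every setting. They count as unmoved and say nothing on how steady the fold changes are. The other 15 values are given here. In WT CFU-E against WT GMP, lower calls were 7 with RLE factors. With total counts only, 31 genes were higher and 1 lower, with a median of 0.429, and 68.7% of all called genes were higher against 47.8% with TMM factors. With a flow cell term 7 were higher and 1 lower, and on flow cell A alone 1 was lower. Leaving out 1 library gave 1 to 16 lower calls. The LSK median was 0.152 when WT 2 and WT 4 were left out, a setting added once the data had been seen. In CFU-E it was -0.064 on flow cell A and 0.073 on flow cell B, and -0.049 to 0.067 leaving out 1 library. For the difference between populations it was -0.027 with total counts only and -0.002 to 0.283 leaving out 1 library. The cause was not tested. Same-numbered libraries did not all deviate together, so the numbers were not taken as pairs. With a replicate block 10 genes were higher and 4 lower in the WT comparison, and the KO comparisons again had 0 calls, with medians of 0.001 (LSK), 0.047 (GMP), -0.042 (CFU-E) and 0.034 (difference). In LSK and GMP the median ran from -0.207 to -0.007 and from -0.198 to 0.088 leaving out 1 library. What limits the precision of single genes was not tested.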
